A study of Mus musculus with 20 samples.

Results

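Among the 60-base probes of a mouse expression array, 16181 are aimed at long intergenic noncoding RNAs (lincRNAs) and are named only by a genome interval and a strand. The 8033 described here were chosen by their detection: the scanner had called them well above background on 4 or more of 20 arrays. They belong to 3451 of the 4607 lincRNAs on the array, where a lincRNA is an interval on a given strand, and to 2727 of the 3540 intervals. They make up 8033 of the 36930 probes of any kind that passed the same rule, out of 55681 on the array. The rule used the scanner's background call alone, so that 23 of these probes passed through LFA and LNT arrays only and 154 through VC, SFA and SNT arrays only.

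The arrays measured diaphragms of female C57Bl/6 mice that were injected into the pleural cavity at 8 weeks of age and killed 12 weeks later, with 4 mice and 4 arrays in each of 5 groups. Every mouse received 0.5% bovine serum albumin in saline, which was all that the vehicle control group (VC) received, as 100 μL. The asbestos groups received 25 μg per mouse of long amosite asbestos fibers (LFA) or of amosite ground to short fibers (SFA). The nanotube groups received 5 μg per mouse of long (LNT) or short (SNT) carbon nanotubes, which the sample labels spell NTL and NTS. Asbestos and nanotube groups therefore differ in dose as well as in material. The RNA came from frozen diaphragm tissue and not from isolated lesions, so a change in the make-up of cells and a change in RNA per cell cannot be told apart.

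LincRNAs are transcribed from DNA between protein-coding genes, are often spliced and polyadenylated like messenger RNA, and do not encode a known protein. Many are kept in the nucleus, are present at low copy number and are found in few cell types. Malat1 and Neat1, a pair of neighbors on chromosome 19, are abundant nuclear examples, H19 and Meg3 are imprinted ones, and Xist coats the inactive X chromosome of female cells. Most of the lincRNAs on this array have no name and no known function.

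The probe sequences below, read 5′ to 3′ as deposited and placed on the NCBI37 build, belong to the lincRNAs on which the results turn. The first pair, probes of the same interval, gave different results. The second lincRNA rose on each of its probes. The next pair comes from intervals on chromosome 1 and shares an unbroken run of 37 bases, in capitals. The last 3 belong to a lincRNA that fell strongly, to one near the Dlk1 gene and to the brightest lincRNA on the array.
chr17:29378878-29379589 forward, brighter probe, chr17:29379295-29379354: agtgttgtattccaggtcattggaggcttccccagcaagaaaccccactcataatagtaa
chr17:29378878-29379589 forward, dimmer probe, chr17:29379231-29379290: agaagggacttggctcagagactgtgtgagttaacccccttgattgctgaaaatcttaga
chr17:71183978-71185384 forward, probe chr17:71185146-71185205: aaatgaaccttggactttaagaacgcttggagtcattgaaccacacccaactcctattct
chr1:85117750-85129200 forward, probe chr1:85120161-85120220: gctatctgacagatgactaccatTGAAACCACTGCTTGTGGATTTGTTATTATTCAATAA
chr1:87343550-87362900 forward, probe chr1:87351659-87351718: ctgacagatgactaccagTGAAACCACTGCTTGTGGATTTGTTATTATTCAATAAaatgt
chr3:36280098-36347798 forward, probe chr3:36347321-36347380: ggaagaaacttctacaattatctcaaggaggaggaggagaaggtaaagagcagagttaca
chr12:110653148-110653701 forward, probe chr12:110653497-110653556: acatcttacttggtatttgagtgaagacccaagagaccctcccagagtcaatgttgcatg
chr19:5801802-5802597 reverse, probe chr19:5802130-5802189: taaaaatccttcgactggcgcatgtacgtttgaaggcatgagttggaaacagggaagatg

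LincRNA probes were dim. Levels are log2 signals with the 75th percentile of each array set to 0, and the median level over the 20 arrays was -3.74 for the 8033 lincRNA probes and -0.74 for the other tested probes. Of all 16181 lincRNA probes, 3731 were well above background on every array, 4158 on no array and 3990 on 1 to 3 arrays. The 373 probes just inside the rule, on exactly 4 arrays, had a median level of -5.76, and the 587 just outside it, on 3 arrays, one of -6.03. The median GC content of the probes was 45.0% for the members, 43.3% for the lincRNA probes that were not detected often enough and 43.3% for the other tested probes.

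The share of lincRNA probes that were well above background ranged from 32.5% on an array of the VC group (replicate 2) to 52.6% on an SNT array (replicate 3). Its mean was 41.2% ± 6.56 (SD, n = 4) for VC, 39.3% ± 4.98 for LFA and 40.8% ± 5.28 for LNT, and the SFA and SNT arrays lay between 33.6% and 52.6%. The groups overlapped, and the fiber groups differed from VC by less than the spread between arrays, with an exact two-sided permutation p of 0.657 for LFA, 0.914 for LNT, 0.771 for SFA and 0.743 for SNT (adjusted p 0.914 for all 4). The same share over the other noncontrol probes averaged 66.4% in VC and between 66.9% and 68.2% in the fiber groups.

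The median log2 change against VC was -0.56 in LFA and -0.41 in LNT, beside -0.21 in each of these groups for the other tested probes. In the groups given short fibers the lincRNA medians were -0.17 in SFA and 0.01 in SNT, beside -0.09 and -0.07. The 75th percentile sets the scale, and after quantile normalization, which moved the median of all tested probes in LFA from -0.28 to -0.08 and in LNT from -0.25 to -0.09, the lincRNA medians were -0.28 and -0.24. On either scale the lincRNA median lay below the median of all tested probes in both long-fiber groups. The gap in LFA, -0.56 against -0.28, narrowed to -0.47 against -0.34 with normexp background correction and to -0.44 against -0.37 without a filter. The arrays lay on 3 slides. Within the slides that held both groups the median change was -0.83, -0.44 and -0.12 in LFA (slides 1, 2 and 3) and -0.14 and -0.45 in LNT (slides 2 and 3), beside -0.26, -0.30 and -0.11 and beside -0.16 and -0.23 for all tested probes. LincRNA probes were thus not below all probes on slide 2 in LNT, and hardly so on slide 3 in LFA. With the slide as a block the lincRNA medians were -0.47 and -0.45, beside -0.25 and -0.26.

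Per array, the median level of the lincRNA members was -3.62, -3.43, -3.47 and -3.32 in VC. It was -3.92, -3.53, -4.23 and -4.14 in LFA and -3.57, -4.12, -3.90 and -3.69 in LNT. The long-fiber arrays lay mostly below the VC arrays, but LFA replicate 2 and LNT replicate 1 lay within their range (exact two-sided permutation p = 0.0571 for LFA and for LNT, n = 4 and 4, adjusted p = 0.114 over the 4 fiber groups; the smallest p that 4 against 4 can give is 0.0286). In SNT, 3 arrays lay between -3.29 and -3.07 and replicate 4 at -4.16. The unscaled 75th percentile of the arrays averaged 9.48 on the log2 scale in LFA and 9.59 in LNT, beside 8.97 in VC, with overlapping ranges (exact permutation p = 0.257 and 0.114, adjusted p = 0.514 and 0.457). With it as a covariate the lincRNA medians were -0.54 in LFA and -0.41 in LNT.

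**Figure D1:**
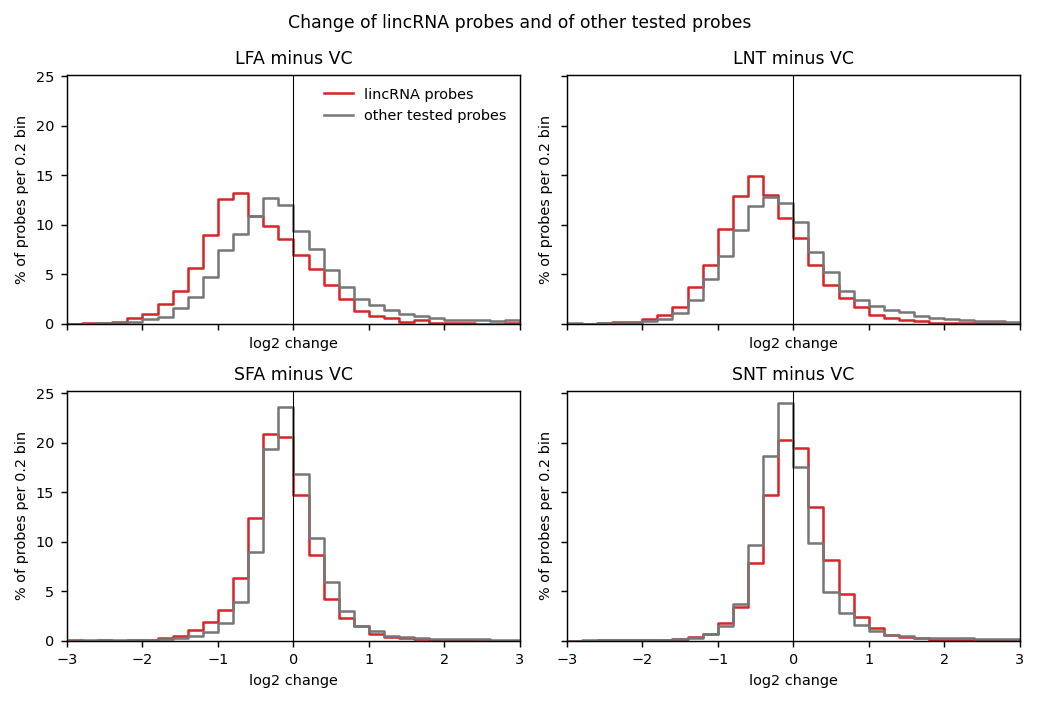
Distribution of the log2 change against VC of the 8033 lincRNA probes (red) and the 28897 other tested probes (grey), as the percentage of probes in bins of 0.2, for each fiber group. The red curve lies left of the grey one in LFA (medians -0.56 and -0.21) and in LNT (-0.41 and -0.21), and close to it in SFA and SNT.

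**Figure D2:**
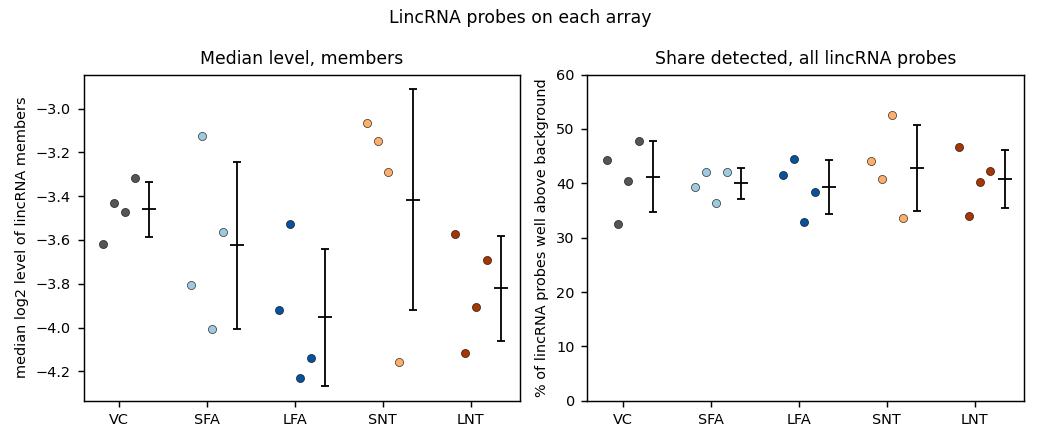
Each point is an array, with the mean and SD of the 4 arrays of a group beside the points. Left, the median log2 level of the 8033 lincRNA probes, which averaged -3.46 in VC, -3.95 in LFA and -3.82 in LNT. Right, the percentage of all 16181 lincRNA probes well above background, which overlapped between all groups.

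Tested probes were divided into 4 equal classes by their mean level, and in LFA the lincRNA medians from the dimmest to the brightest class were -0.59, -0.56, -0.48 and -0.53. Those of the other probes were -0.37, -0.24, -0.08 and -0.24. In LNT the lincRNA medians were -0.46, -0.38, -0.37 and -0.39, and those of the other probes were -0.28, -0.12, -0.08 and -0.34. The gap was thus smallest among the brightest probes in LNT, where 415 lincRNA probes lie. Among the 3731 lincRNA probes detected on all 20 arrays, which no group could bring past the rule alone, the medians were -0.55 in LFA and -0.40 in LNT.

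A probe was called changed at a change of at least 2-fold and an adjusted p under 0.05 in limma, with the Benjamini-Hochberg adjustment over all 36930 tested probes. In LFA against VC, 168 lincRNA probes were called (2.09%, beside 3.94% of all tested probes). Of these, 35 lincRNA probes were higher (0.436%, beside 2.22% of all tested probes) and 133 were lower (1.66%, beside 1.72%). In LNT against VC, 283 were called (3.52%, beside 6.81%), of which 86 were higher (1.07%, beside 3.63% of all tested probes) and 197 were lower (2.45%, beside 3.18%). Whether these shares differ from those of the array was not tested, and the split depends on the scale: after quantile normalization LFA had 50 higher and 59 lower probes, and LNT had 103 and 115.

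No lincRNA probe was called in SFA or in SNT against VC (0% of all tested probes), although 154 and 220 had an unadjusted p under 0.05. The methods' test, an analysis of variance over the 5 groups that allows unequal spread and follows a 2-fold filter, counted 15 in SFA and 20 in SNT, beside 180 and 194 of all probes. The length comparison within asbestos, LFA against SFA, called 27 lincRNA probes (0.336%, beside 1.16%), 15 of them higher (0.187%, beside 1.03% of all tested probes) and 12 lower (0.149%, beside 0.133%), and after quantile normalization 21 and 9. Within nanotubes, LNT against SNT, 411 were called (5.12%, beside 7.6%), of which 150 were higher (1.87%, beside 4.89%) and 261 lower (3.25%, beside 2.71%), and after quantile normalization 192 and 169. Without SNT replicate 4, the array that stood apart in lincRNA level, the counts in LNT against SNT were 201 higher and 1260 lower, and without LNT replicate 2 they were 85 and 102. Over all tested probes the calls moved alike, from 2806 to 5499 and to 1742.

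The long fibers of the different materials were not told apart. No lincRNA probe was called between LFA and LNT, between SFA and SNT, or in the difference of the length effects (0% of all tested probes in each), with 117, 408 and 191 at an unadjusted p under 0.05. Without LFA replicate 2, 2 probes were called lower in LFA than in LNT. Doses differ between the materials, so that the absence of calls is no measure of how alike they are.

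Called in both LFA and LNT against VC, which share the VC arrays, were 33 higher probes of 24 lincRNAs (2.13% of all tested probes were called higher in both) and 74 lower probes of 65 lincRNAs (1.14%). The 33 rose by up to 2.97 in LFA (median 1.81) and up to 4.14 in LNT (median 2.16), and their medians in SFA and SNT were 0.47 and -0.12. The lowest change of the 74 was -3.07 in LFA (median -1.47) and -4.16 in LNT (median -1.44), with medians of -0.44 in SFA and -0.35 in SNT. Every LFA and LNT array lay below every VC array for 762 lincRNA probes (9.49%, beside 7.93% of all tested probes) and above for 98 (1.22%, beside 3.6%).

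Single arrays moved the counts. Leaving out LFA replicate 2 brought the calls in LFA against VC from 168 to 46, with 9 higher and 37 lower. Leaving out SNT replicate 4, which takes part in that comparison only through the shared estimate of the spread, brought them to 553. Over all tested probes the calls went from 1455 to 466 and to 2636. In LNT against VC they ran from 122 without LNT replicate 4 to 441 without SNT replicate 4, beside 283, and over all tested probes from 1390 to 3095, beside 2514. With the slide as a block, LFA had 29 higher and 71 lower probes, and LNT had 48 and 89, beside 899 and 1328 calls over all tested probes.

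With each lincRNA represented by its brightest tested probe and ranked by the smaller of its changes in LFA and LNT, the one that rose most was chr17:29378878-29379589 on the forward strand, 712 bases long, whose brighter probe is printed above. Its level was 0.22, 1.47, 0.75 and -0.44 in VC and 3.44, 4.77, 2.35 and 3.11 in LFA. In LNT it was 4.72, 4.85, 4.70 and 4.06. All 8 long-fiber arrays lay above all VC arrays. It was 7.57-fold higher in LFA than in VC (log2 change 2.92 ± 0.57 SE, limma adjusted p = 0.0096) and more so in LNT (4.08 ± 0.57, adjusted p = 0.00036). The short fibers left it between -0.06 and 1.02 in SFA and between -2.12 and 0.97 in SNT, which overlap VC, and it was 36.6-fold higher in LNT than in SNT. The change was seen on its brighter probe alone, and a further probe of the interval was on no array well above background and was not tested. The other tested probe of the same interval changed by -0.02 in LFA and -0.35 in LNT, at a level of -4.09, and the nearest gene probe, for the spliceosome-associated isomerase Ppil1, 8191 bases away on the opposite strand, changed by 0.16 and 0.12.

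A lincRNA at chr17:71183978-71185384, forward strand, rose on all 3 of its probes, by 2.71 to 2.97 on the log2 scale in LFA and 2.86 to 3.26 in LNT. The brightest of them stood at -4.59, -4.83, -6.53 and -5.74 in VC and was well above background on 1 VC array. It stood between -2.92 and -2.19 in LFA and between -2.89 and -1.29 in LNT, above every VC array. In SNT it was -5.63, -5.42, -2.51 and -1.76, so that SNT arrays lay both with VC and with the long-fiber groups. In SFA it was -3.74, -3.21, -4.57 and -4.43, above every VC array, with a change of 1.44 that was not called. The LFA change (2.87 ± 0.71, adjusted p = 0.031) missed the threshold when 6 of the 20 arrays were left out in turn (highest adjusted p = 0.084, without LFA replicate 2) and with the slide as a block (0.054). Tgif1, a homeobox repressor of TGF-beta signaling probed 8245 bases away on the opposite strand, changed by 1.09 and 1.04 and was not called (adjusted p = 0.16 and 0.17).

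The lincRNA at chr7:140012053-140012509, reverse strand, was high in LNT on every array. Its level was between -1.53 and -0.88 in VC and between 2.45 and 3.41 in LNT, a 17.6-fold difference (4.14 ± 0.62, adjusted p = 0.00062). In LFA it was 0.85, 3.46, -0.36 and 0.82, above VC on every array and spread widely (2.51 ± 0.62, adjusted p = 0.032). Without LFA replicate 2, the highest of them, the adjusted p was 0.081. All these values come from a single probe, since the others of the interval were well above background on 2 and 0 arrays and were not tested. Mettl10, a methyltransferase gene 6734 bases away on the same strand, changed by 0.30 in LFA and 0.04 in LNT on its brightest probe.

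The printed probes of the chromosome 1 lincRNAs with the shared sequence rose together. At chr1:85117750-85129200 the level was -2.90, -1.41, -1.50 and -2.49 in VC, between -0.29 and 0.72 in LFA and between -0.22 and 1.11 in LNT. At chr1:87343550-87362900 it was -2.41, -1.37, -1.29 and -2.22 in VC, between -0.14 and 0.97 in LFA and between -0.06 and 1.41 in LNT. Neither group of long-fiber arrays overlapped VC at either interval. The changes were 2.36 and 2.34 in LFA (adjusted p = 0.0077 and 0.0048) and 2.44 and 2.43 in LNT (adjusted p = 0.003 and 0.0017). The other tested probe of chr1:87343550-87362900, at a level of -5.61, changed by -0.67 in LFA and -0.14 in LNT and was not called. Outside single slides, the call of that interval was lost in 1 of 30 alternatives in each group (limma adjusted p = 0.19 in LFA and 0.075 in LNT). At chr1:85117750-85129200 a probe at -5.40 was not called (0.27 and 0.67), while its other tested probes were. Aligned at the run in capitals, the printed probes match at 54 of their 60 bases, so their rises are not separate findings. The counts of lincRNAs given here still take the intervals as separate. The nearest gene probe to the first, 32495 bases away on the opposite strand, belongs to A530032D15Rik and was called as well (1.57 in LFA and 1.82 in LNT, adjusted p = 0.009 and 0.002).

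A further probe near A530032D15Rik went the other way. The lincRNA at chr1:84947500-85045150, reverse strand, stood between -0.35 and 2.07 in VC, between -1.24 and -0.82 in LFA and between -1.29 and -0.96 in LNT. It fell by 1.70 in LFA (adjusted p = 0.041) and by 1.68 in LNT (adjusted p = 0.029). VC replicate 2 was its highest array, and without it the adjusted p in LFA was 0.095. Its other tested probe changed by 0.81 in LFA and was not called.

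The remaining higher lincRNAs were those at chr9:89167172-89168980 (forward; 2.18 in LFA and 3.49 in LNT), chr4:149445201-149445902 (forward; 1.52 and 1.64), chr9:65368908-65377592 (reverse) and chr5:31883451-31884082 (forward), with that at chr7:111526943-111545093 described with its genes further on. All 3 probes of the chromosome 4 lincRNA were called in both groups. That at chr9:89167172-89168980 had a single tested probe, and its others were well above background on 2 and 0 arrays. The chr9:65368908-65377592 lincRNA was on no VC array well above background (mean level -6.31). Its mean was -3.75 in LFA, at least 2.36-fold higher (adjusted p = 0.023), and -2.87 in LNT, at least 4.35-fold higher (adjusted p = 0.0018). Its other tested probes changed by 1.82 and 2.73, called in LNT alone, and by 1.28 and 1.46, called in neither group. The lincRNA at chr5:31883451-31884082 was likewise without a VC array above background (mean level -5.47). With means of -3.80 in LFA and -3.16 in LNT, it was at least 2.26-fold higher (adjusted p = 0.049) and at least 3.50-fold higher (adjusted p = 0.0059). The LFA call was lost with the slide as a block (adjusted p = 0.088) and with the replicate block (0.072). These bounds set the mean of the long-fiber arrays against the dimmest signal called well above background on each VC array, or the probe's own where that was higher. The chr9:65368908-65377592 and chr5:31883451-31884082 probes passed the detection rule on 9 and 13 arrays, none of them from VC. The rule itself thus favored higher values in the fiber groups there, and these p-values are no independent support.

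**Figure D3:**
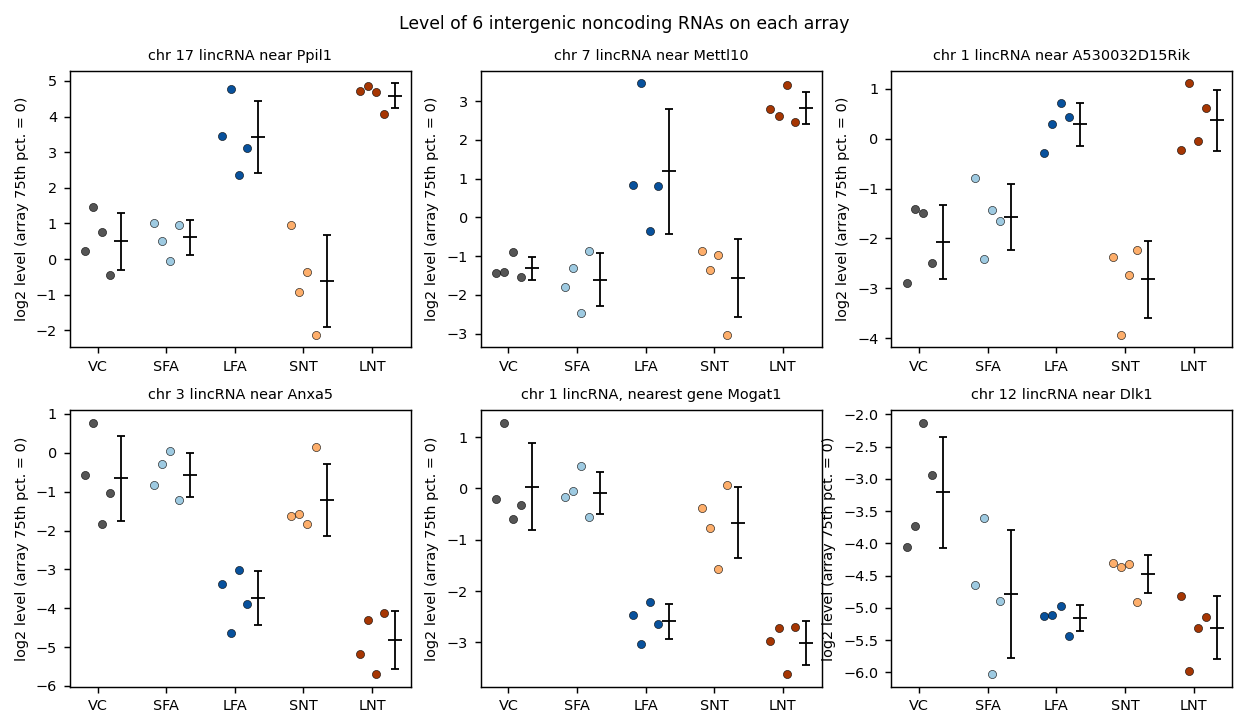
Log2 level of 6 lincRNAs on each array (points; the 75th percentile of each array is 0), with the mean and SD of the 4 arrays of a group beside the points. The upper 3 lie above all VC arrays on every LFA and LNT array and the lower 3 below them, and SFA and SNT overlap VC except at the Dlk1 lincRNA, where all 4 SNT arrays lie below VC.

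The lincRNA that fell most among those named was chr3:36280098-36347798 on the forward strand, an interval of 67701 bases. Its level was -0.56, 0.78, -1.82 and -1.04 in VC and -3.38, -4.63, -3.02 and -3.90 in LFA. In LNT it was -5.17, -4.30, -5.70 and -4.11. All long-fiber arrays lay below all VC arrays, with a fall of 8.41-fold in LFA (-3.07 ± 0.55, adjusted p = 0.0056) and 17.9-fold in LNT (-4.16 ± 0.55, adjusted p = 0.00023). Both calls held with each array left out in turn and with the slide as a block. Within single slides, where no probe was called, the change lay between -3.49 and -2.42 for LFA and between -5.28 and -2.88 for LNT. The interval has 6 probes on the array, of which 2 were tested, and the second changed by -0.54 in LFA. Anxa5, the gene of the phospholipid-binding protein annexin A5, has a probe 267 bases from the interval on the opposite strand at a level of 5.47, and it changed by 0.06 in LFA and 0.14 in LNT.

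The lincRNA at chr1:78591605-78606083, reverse strand, stood between -0.60 and 1.28 in VC, between -3.03 and -2.21 in LFA and between -3.62 and -2.70 in LNT. It fell by 2.62 in LFA (± 0.40, adjusted p = 0.0016) and by 3.04 in LNT (± 0.40, adjusted p = 0.00022), without overlap, while SFA lay between -0.56 and 0.44 and SNT between -1.57 and 0.07. The other probes of the interval changed by -0.85 and -0.83 in LFA and were not called, and its 60 bases are carried by another probe on the array too, so that its position is uncertain. The gene probe nearest to it, 56869 bases away, belongs to Mogat1, an acyltransferase of triglyceride synthesis.

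Near Dlk1, an imprinted gene that encodes a Delta-like membrane protein of muscle and fat precursors, the lincRNA at chr12:110653148-110653701 (forward strand) was lower. Its level was -4.05, -3.72, -2.13 and -2.93 in VC, between -5.44 and -4.97 in LFA and between -5.97 and -4.81 in LNT. It fell by 1.95 in LFA (adjusted p = 0.021) and by 2.10 in LNT (adjusted p = 0.0078), to levels at which 2 LFA arrays and 1 LNT array were well above background. Further probes of the interval were well above background on 1 and 2 arrays and were not tested. Dlk1 has 2 probes, 44801 bases away at the closest on the same strand. The brighter of them fell by 1.85 in LFA (adjusted p = 0.008) and by 1.85 in LNT (adjusted p = 0.004). In SFA the lincRNA stood at -4.64, -3.61, -6.03 and -4.89 and in SNT between -4.91 and -4.30, so that most short-fiber arrays also lay below the VC arrays, although neither group was called.

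The other lower lincRNAs were those at chr5:123440192-123451767 (reverse; -2.19 in LFA and -1.83 in LNT), chrX:157038750-157039018 (forward; -1.86 and -1.79), chr10:78969674-78981039 (forward) and chrX:6942702-6954713 (forward). The chrX:157038750-157039018 lincRNA was bright, at 3.89 to 6.34 in VC against 2.63 to 3.22 in LFA and 2.92 to 3.24 in LNT, and its LFA call was lost with the slide as a block (adjusted p = 0.059). Its other tested probe, at a level of -4.58, changed by 0.59 in LFA and 0.27 in LNT and was not called. The other tested probe of chr5:123440192-123451767, at -5.59, changed by -1.61 and -0.63 and was not called. The chromosome 10 lincRNA was on no LFA array well above background (mean -6.02, against -3.74 in VC) and was at least 3.22-fold lower there (adjusted p = 0.015). All SFA arrays (-5.49 to -4.42) and SNT arrays (-5.97 to -4.06) lay below every VC array too, although neither group was called. That at chrX:6942702-6954713 was on no LFA or LNT array well above background. Its means were -4.59 in VC, -6.36 in LFA and -6.80 in LNT, at least 1.80-fold lower (adjusted p = 0.045, and 0.067 with the slide as a block) and at least 1.72-fold lower (adjusted p = 0.0095). Its probe passed the detection rule on 5 arrays, none of them from LFA or LNT. The rule itself thus favored lower values there, and these p-values are no independent support. The chromosome 10 probe passed on 10 arrays, none of them from LFA, so the same holds for its LFA p-value. In 6 of the 8 lower lincRNAs named here, VC replicate 2, the array with the lowest 75th percentile, was the highest VC array. Without it, 40 lincRNA probes were called lower in LFA and 83 in LNT, beside 133 and 197. The calls of chr3:36280098-36347798 and chr1:78591605-78606083, and of the higher lincRNAs at chr17:29378878-29379589, chr1:85117750-85129200 and chr1:87343550-87362900, held in both groups whichever of the 20 arrays was left out.

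With fiber length, chr1:171402829-171403289 on the reverse strand changed most in asbestos and was second to chr17:29378878-29379589 in nanotubes. Its level was 0.31, 0.12, 1.08 and -0.04 in LNT and -3.84, -5.06, -3.38 and -6.26 in SNT, without overlap (5.00 ± 0.85 on the log2 scale, adjusted p = 0.0012). In asbestos it was -1.63, 1.04, -3.45 and -2.20 in LFA and -4.52, -4.68, -7.39 and -3.95 in SFA (3.57, adjusted p = 0.046, and 0.18 without LFA replicate 2). It was well above background on 2 SNT and 2 SFA arrays only, so these sizes rest in part on values at background. They also rest on a single probe, since the others of the interval were on no array well above background. With normexp background correction the change in asbestos was 1.65 and was not called (adjusted p = 0.13), nor was it with the replicate block (adjusted p = 0.07). Against VC, which lay between -5.35 and -3.81, it was called in LNT (4.77, adjusted p = 0.0023) and not in LFA (2.85, adjusted p = 0.061). Nuf2, a kinetochore gene 24980 bases away on the same strand, was called in LNT too (1.65, adjusted p = 0.015) and not in LFA (1.25, adjusted p = 0.07).

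Of the 5 brightest lincRNAs, 4 were not called in any comparison with VC. The brightest, chr19:5801802-5802597 on the reverse strand, lies 6030 bases from the Malat1 probe and 39967 bases from that of Neat1, both on the same strand. Gene boundaries were not at hand, so whether this interval is part of Malat1 itself was not tested. The Malat1 probe had a level of 1.32 and changed by 0.81 in LFA and 0.68 in LNT, not called. The level of chr19:5801802-5802597 was 8.33 ± 0.25 (SD, n = 4) in VC, 8.05 ± 0.31 in LFA and 7.96 ± 0.38 in LNT, a difference smaller than the spread between arrays (adjusted p = 0.57 and 0.48). The direction turned after quantile normalization (0.22 in LFA and 0.20 in LNT). That at chr2:168804720-168854970, reverse strand, is the exception: it stood at 8.35 ± 0.52 in VC and 7.11 ± 0.24 in LNT, without overlap (-1.24, adjusted p = 0.015, and 0.066 with the slide as a block), and changed by -1.02 in LFA (adjusted p = 0.053). Its other tested probe, at a level of -3.67, changed by -0.21 in LFA and -0.50 in LNT and was not called. The remaining 3, chr17:17481706-17482457, chr11:22681800-22707775 and chr7:108209996-108216032, changed by -0.47 to -0.12 in either group and were not called.

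Position was taken from the probes, since the files give no gene boundaries. A probe was assigned to a named gene where it carried a RefSeq accession and a symbol or synonym of the RefSeq table (28165 probes of 21410 genes). Of the 3451 lincRNAs, each represented by its brightest tested probe, 526 had such a gene probe inside their interval, 566 within 5 kb, 1479 at 5 to 50 kb and 880 farther away. In this order, the median change in LFA was -0.55, -0.56, -0.66 and -0.63. In LNT it was -0.39, -0.39, -0.45 and -0.46. The share called in LFA was 2.47%, 2.12%, 2.70% and 1.59%, beside 2.29% of all 3451.

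The position classes were split by strand. Where several gene probes lay inside an interval, a probe on the lincRNA's own strand was preferred. The opposite-strand class thus holds only intervals without a same-strand gene probe inside. Where the gene probe inside the interval was on the lincRNA's own strand (331 lincRNAs), the median change was -0.27 in LFA and -0.26 in LNT. Where it was on the opposite strand (195), the medians were -0.75 and -0.52. Within 5 kb they were -0.41 and -0.31 on the same strand and -0.77 and -0.51 on the opposite strand, and at 5 to 50 kb in LFA -0.63 and -0.68. The median level of the inside classes was -2.33 on the same strand and -3.12 on the opposite strand. These differences were not tested. Across the same-strand pairs with both probes tested (282), the change of the lincRNA and that of the gene were correlated (Pearson r = 0.45 in LFA and 0.43 in LNT). Across the 172 opposite-strand pairs r was 0.03 and 0.06, and within 5 kb it was 0.02 and 0.12 on the same strand and 0.12 and 0.08 on the opposite strand. At 5 to 50 kb it was 0.06 and 0.07 on the same strand and 0.04 and 0.08 on the opposite strand. Over 50 kb away it was 0.08 and 0.12 on the same strand and 0.22 and 0.19 on the opposite strand, so it did not fall steadily with distance. These are descriptions across regions that share their arrays, and some genes enter several pairs. In 72 of the 282 same-strand pairs (25.5%) the changes in LFA lay within 0.1 of each other, beside 9 of the 172 opposite-strand pairs (5.23%). Whether such probes read the transcript of the gene was not tested.

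**Figure D4:**
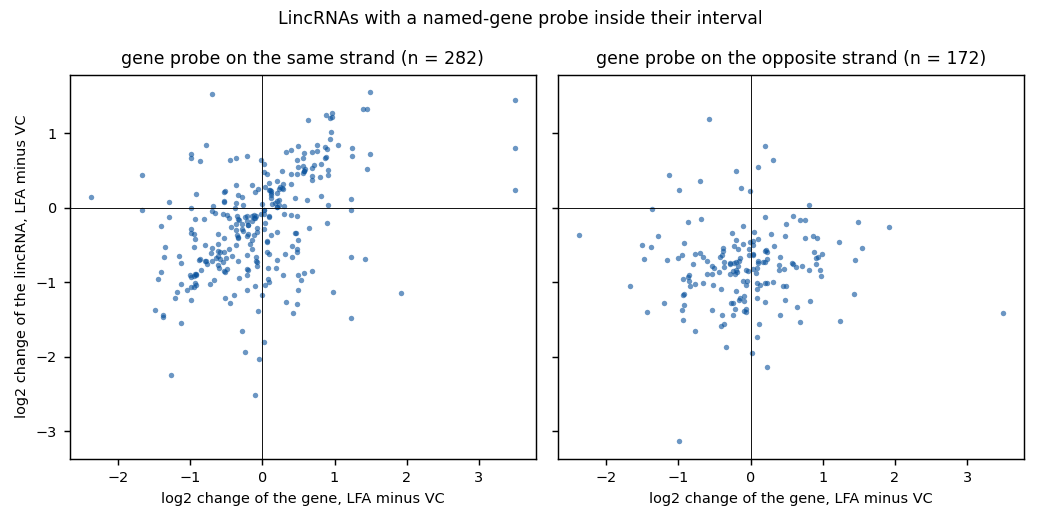
Log2 change in LFA against VC of lincRNAs (vertical) and of the named gene probed inside their interval (horizontal), with the gene on the same strand (left, 282 pairs, r = 0.45) or the opposite strand (right, 172 pairs, r = 0.03). Each point is a lincRNA, and on the right most points lie below 0 whatever the change of the gene.

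The lincRNA at chr7:111526943-111545093, reverse strand, shows the same-strand case. It lies over the Trim30c probe in a cluster of Trim30 genes, which encode interferon-inducible tripartite-motif proteins, and rose from -0.91, -0.14, -0.25 and -0.63 in VC to 0.57, 1.70, 0.76 and 1.27 in LFA. In LNT it was 0.87, 1.44, 0.76 and 1.42. It changed by 1.56 in LFA (adjusted p = 0.025) and 1.61 in LNT (adjusted p = 0.012), while Trim30a, 12485 bases away on the same strand, changed by 1.66 and 1.60 (adjusted p = 0.017 and 0.011) and Trim30c by 1.49 and 1.14 (adjusted p = 0.018 and 0.041). Its other neighbors within 50 kb were not called: Trim30b changed by 1.14 and 1.16, Trim12c by 0.71 and 0.26, and Trim34b by -0.35 and 0.34. With the slide as a block the LNT change of the lincRNA had an adjusted p of 0.052, and its LFA call was lost in 4 of the fits that left out an array. In SFA it stood at 0.89, -0.34, 1.04 and -0.15, with 2 arrays in the range of LFA.

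Among lincRNAs called higher with a tested gene probe within 50 kb, that gene was called higher for 2 of 11 in LFA and 3 of 21 in LNT. For those called lower it was called lower for 1 of 46 and 4 of 59. Of the 2222 such lincRNAs that were not called in LFA, the gene was called higher for 70 and lower for 39 (4.91% in either direction). Of the 2199 not called in LNT, it was called higher for 104 and lower for 85 (8.59% in either direction). Most called lincRNAs with a tested gene in reach thus stood next to a gene that was not called.

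The strands of an interval were compared where both were probed. Of 1067 intervals with probes on both strands, 724 had a tested probe on each, with a median distance of 2.30 between their log2 levels. The brighter strand had a median level of -1.34 and changed by -0.68 in LFA and -0.45 in LNT, and the dimmer one had a level of -3.96 and changed by -0.70 and -0.52. Across intervals the Pearson correlation of the changes of both strands was -0.06 in LFA and -0.01 in LNT. In LFA 34 and in LNT 49 of the intervals were called on a single strand, and 0 on both. Of the 724, the brighter strand was called in 23 in LFA and 35 in LNT, and the dimmer one in 11 and 14. Calls were thus rare on either strand, and the 0 is no measure of how separately the strands change.

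Probes of a single lincRNA were compared in direction and in call, of which the call is the stricter. Among lincRNAs with 2 or more tested probes, the SD of the change within a lincRNA was 0.49 in LFA and 0.48 in LNT, beside 0.70 and 0.66 over all tested probes of these lincRNAs together. Of the 116 such lincRNAs with a called probe in LFA, all probes had the same direction in 99 and all were called in 4. In LNT these numbers were 172, 130 and 20. Of all lincRNA probes, 77.3% lay below 0 in LFA and 74.3% in LNT, so probes of different lincRNAs also often share a direction. Only 53 of the 8033 member probes share their whole sequence with another probe of the array.

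Long noncoding RNAs with a gene name have probes of their own on the array. Of 60 on the list used here, 30 were on the array and 25 tested. Their brightest members were H19 (level 7.65), Neat1 (5.95), Snhg6 (3.43), Meg3 (3.35) and Gas5 (3.32), and none of these was called. The list's median change was 0.11 in LFA and -0.01 in LNT, beside -0.28 and -0.25 over all tested probes. Pvt1, a neighbor of Myc that is often gained with it in tumors, was the only one called, in LNT (1.36, adjusted p = 0.025) and not in LFA (1.22, adjusted p = 0.057), and the LNT call was lost with the slide as a block (adjusted p = 0.092).

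Markers of macrophages and of muscle moved with the same groups. Of 17 macrophage markers tested, 13 were called higher in LFA and 14 in LNT, and their mean change from VC was 1.37 to 2.33 on LFA arrays, 2.14 to 2.36 on LNT arrays and -0.17 to 0.10 on VC arrays. Of 19 skeletal muscle markers, 5 were called lower in LFA and 7 in LNT, with a range from -1.24 to -0.87 on LFA arrays and from -1.39 to -1.18 on LNT arrays. Short-fiber arrays were partly low as well, from -0.69 to -0.10 in SFA, and SNT replicate 4, the array apart in lincRNA level, was at -1.04. Fibroblast and matrix markers were called higher (2 in LFA and 6 in LNT of 12), as were B and plasma cell markers (2 and 3 of 12), and adipocyte markers lower (1 and 4 of 9). Of 12 T cell markers 0 and 1 were called higher, and of 12 granulocyte markers 2 and 1. None of 11 mesothelial and 5 lung markers was called in LFA or LNT against VC. Over all tested probes, 2.22% in LFA and 3.63% in LNT were called higher, and 1.72% and 3.18% lower. All 19 skeletal muscle markers were well above background on all 20 arrays. Of 15 liver markers none was called, although their mean varied widely within groups. It was 6.11, -1.93, 6.30 and -1.90 in LFA, -0.31, -1.65, 7.48 and 7.46 in SNT, -2.44 to 6.07 in SFA, -0.46 to 3.51 in LNT and -1.50 to 3.38 in VC. The part that these cells have in the changes of the lincRNAs was not tested.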

How the data were processed

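Per the labels and file headers, the authors labelled total RNA of each diaphragm with Cy3 and hybridised it to a 1-colour Agilent mouse array, and read each array with Agilent Feature Extraction 10.7.3.1 (build NCBI37). The deposited scanner files hold intensity per spot, already background-subtracted. The authors' own table holds the log2 mean of each group only and was used for medians alone. Outlier spots were left out, spots of a probe averaged, and log2 values taken relative to the array's 75th percentile (294 to 996 in intensity). Probes well above background on at least 4 arrays were tested with limma 3.58.1 (R 4.3.3), 1 fit over 5 group means. The number of arrays limits the precision. Replicates are separate mice by the study's methods. The slide, the replicate number as a block, other normalizations, filters and left-out arrays were tried as alternatives. Named lincRNAs are the 10 higher and 8 lower with the largest smaller change among those called in LFA and LNT and beyond every VC array, the 3 with the largest called change in each length comparison, and the 5 brightest. Genes were named from RefSeq (GRCm38.p6), for symbols only. The members and lists were chosen with earlier results of these data known. The fit was tested on simulated data.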

Additional observations from a re-analysis of the deposited data

Results flagged for a closer look

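In 9 of the 130 groups of 4 arrays examined (the 24 named lincRNAs, the detected share and the median level), a single array stood apart from the other 3 by Dixon's test, where chance gives about 1 in 20. VC replicate 2 stood above the other VC arrays at chr17:17481706-17482457 (8.64, against 7.69 to 7.76) and at chr11:22681800-22707775 (8.99, against 7.42 to 7.66). SNT replicate 4 stood above the other SNT arrays at chr3:36280098-36347798 (0.15, against -1.82 to -1.57) and below them at chr12:110653148-110653701 (-4.91, against -4.37 to -4.30). The remaining 5 were SFA replicate 4 at chr9:89167172-89168980 (0.44, against -0.72 to -0.60), LFA replicate 1 at chr5:31883451-31884082 (-4.27, against -3.69 to -3.58) and VC replicate 4 at chr10:78969674-78981039 (-2.89, with the lowest at -4.05), with SFA replicate 3 at chr17:17481706-17482457 (7.79, against 7.83 to 7.84) and LNT replicate 2 at chr11:22681800-22707775 (8.09, against 7.45 to 7.54). The causes were not tested.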

How the results depend on the processing

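Counts of called lincRNA probes moved more than 1.5 times under several settings, and the causes were not tested. In LFA against VC, 168 became 109 with quantile normalization, 91 without a filter, 100 with the slide as a block, 66 with only the groups compared, 96 with array brightness as a covariate and 289 by the methods' test. In LNT against VC, 283 became 165 with normexp, 137 with the slide block, 127 with the mean over the probes of a lincRNA and 100 with the brightness covariate, which turned the split to 55 higher and 45 lower. The methods' test gave 15 in SFA and 20 in SNT. In LFA against SFA, 27 became 5 with only the groups compared, 9 with the mean over probes and 11 with the brightness covariate. In LNT against SNT, 411 became 62 with the slide block, 208 with only the groups compared, 196 with the mean over probes and 157 with the brightness covariate. Within a single slide the count was 0 in LFA, LNT, LFA against SFA and LNT against SNT by limma. The brightness covariate and Pvt1 were added after the data were seen.

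With an array left out, the counts ran from 46 to 553 in LFA, 122 to 441 in LNT, 5 to 44 in LFA against SFA, 187 to 1461 in LNT against SNT and 0 to 2 in LFA against LNT, and stayed at 0 in SFA, SNT, SFA against SNT and the difference of the length effects. The median changes ran from -0.68 to -0.46 in LFA, -0.48 to -0.30 in LNT, -0.33 to -0.05 in SFA, -0.12 to 0.28 in SNT, -0.50 to -0.19 in LFA against SFA and -0.74 to -0.32 in LNT against SNT. The detected share minus VC ran from -4.16 to 0.922 percentage points in SFA, -4.82 to 0.262 in LFA, -1.72 to 4.61 in SNT and -3.34 to 1.85 in LNT, and by the scanner's weaker detection mark SFA was 0.893 above VC.

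Within slides, the median change was -0.12 in LFA on slide 3, -0.42 and 0.36 in SNT on slides 1 and 2, and 0.16 in LFA against SFA on slide 3. The replicate numbers do not pair the mice: the correlation of deviations of arrays with the same number ran from -0.68 to 0.69 (median -0.09). With the replicate block 201 lincRNA probes were called in LFA, 282 in LNT, 27 in LFA against SFA and 375 in LNT against SNT.

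Among single lincRNAs, only the bright ones turned in direction. The change of chr19:5801802-5802597 was 0.22 in LFA and 0.20 in LNT after quantile normalization, 0.10 in LFA on slide 3 and 0.11 in LNT on slide 2. That of chr17:17481706-17482457 was 0.089 and 0.14 after quantile normalization and 0.046 in LFA on slide 1. That of chr11:22681800-22707775 was 0.35 and 0.38 after quantile normalization, -0.28 to 0.25 in LFA and -0.38 to 0.14 in LNT with an array left out (highest without VC replicate 2), 0.30 and 0.29 with the brightness covariate, 0.60 in LFA on slide 1, 0.046 in LFA on slide 3 and 0.29 in LNT on slide 3. That of chr7:108209996-108216032 was 0.15 in LFA on slide 1, and in LNT 0.20 after quantile normalization, 0.039 on slide 3 and 0.10 with the brightness covariate. Outside single slides, the least stable calls were those of chr5:31883451-31884082 in LFA, lost in 23 of 29 alternatives, chr1:171402829-171403289 in LFA against SFA (21 of 29), chr5:123440192-123451767 in LNT (21 of 30) and chrX:6942702-6954713 in LFA (19 of 29).

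The authors' table holds group means, and calls from it were not run, nor were slides that lack a group. Signal over background limits the dim probes: 4302 of the 8033 members were not well above background on every array.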
